A study of Caenorhabditis elegans with 6 samples.

Results

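The *clec* genes of *C. elegans* encode proteins with C-type lectin-like domains, and they form one of the larger gene families of the worm. They were taken here as every protein-coding gene of the Ensembl annotation whose name begins with *clec-*, which gave 240 of 19973 protein-coding genes on the 6 nuclear chromosomes. These 240 records carry 237 names, because *clec-15*, *clec-209* and *clec-249* are each annotated at 2 loci. By chromosome there are 36 *clec* genes on I, 48 on II, 14 on III, 53 on IV, 86 on V and 3 on X. A peak was assigned to a gene when it lay within 500 bp of the annotated 5′ end, or when it overlapped the gene body by at least 1 base.

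ATAC-seq, which maps open chromatin by where a transposase can cut, was performed on isolated germ nuclei (IGN) of young adult worms grown at 20 °C. The wild type group was 3 samples of strain VC2010, and the *prde-1* mutant group was 3 samples of strain SX2499, genotype *prde-1(mj207)V*. PRDE-1 is a germline subunit of the Upstream Sequence Transcription Complex (USTC), which is needed to transcribe Type-I piRNA genes. The mutant strain loses fertility over generations and was backcrossed to keep it fertile, and its worms were harvested at a later hour than wild type worms. The deposited peaks are 1 list per genotype that covers its samples together, with 13996 peaks in the wild type list and 9674 in the *prde-1* list. No value per sample could be given, the depth is unknown, and no difference between the genotypes could be tested against replicate spread. Intervals in brackets are 95% Wilson intervals, which cover counting error only. Genotype cannot be told apart from whatever else differed between the lists, such as the number of peaks called. Within a list, peaks are ranked by score, with rank 1 the highest. The score sums −log10 p over the positions of the peak, so a wide peak can rank above a taller one.

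C-type lectin-like domains are protein folds that in many animals bind sugars, and most worm *clec* products carry a signal for secretion. Many *clec* genes are expressed in the intestine, and sets of them are induced when worms feed on pathogens. Their regulators there include the p38 MAP kinase pathway and the GATA factor ELT-2, which binds TGATAA in front of intestinal genes.

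The label of the samples was checked against marker genes. In wild type, 9 of 12 germline markers had a peak within 500 bp of the 5′ end, against 30.6% of all coding genes. The best ranked were *glh-1* (rank 201) and *spo-11* (rank 717), the last was *htp-3* (rank 12337), and *pgl-1*, *him-3* and *syp-1* had none. Peaks were also found at markers of the soma, at 5 of 8 intestinal, 5 of 5 body wall muscle, 2 of 5 hypodermal and 1 of 5 neuronal genes. The intestinal, hypodermal and neuronal counts are too small to set apart from the share of all coding genes. The yolk protein genes *vit-2* and *vit-6*, which are active in the intestine of adult hermaphrodites, held the wild type peaks of rank 2 and 3. Their best *prde-1* ranks were 914 and 1261, while the intestinal protease gene *asp-1* went from rank 247 to rank 73. The *prde-1* list had peaks at 9 germline, 6 intestinal, 4 muscle, 0 hypodermal and 1 neuronal marker, against 25.1% of all coding genes. The part of nuclei from the soma in the peaks at *clec* genes was not tested.

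To show the kind of promoter sequence involved, stretches of 30 bases with a match to TGATAA are printed for *clec* genes known from pathogen responses or behavior. *clec-17* of that set is not shown, and *clec-57*, whose 5′ end lies beside a high-ranking peak, was added. Each stretch was picked for its match, so the stretches do not show how common the motif is. All were read 5′ to 3′ on the strand of the gene from the RefSeq genome (WBcel235, the same assembly as ce11). Capitals mark TGATAA, or its reverse complement TTATCA where the motif is on the other strand, at the site nearest the 5′ end for which the 30 bases end before it. The stretch of *clec-4* holds another TGATAA further from the 5′ end, left in lower case.
*clec-4*, chrII:12581124-12581153, minus strand: aattgataatacTGATAAcgaattcgcaaa
*clec-38*, chrV:16735714-16735743, minus strand: ctagggaaaaatTGATAAggaaattaattc
*clec-39*, chrV:16739227-16739256, plus strand: agagggaagtacTGATAAgggaaattgaaa
*clec-49*, chrV:19751292-19751321, minus strand: gaaactgttgtcTTATCAtagacgtgtgtg
*clec-60*, chrII:10482117-10482146, minus strand: taaaagaagtggTGATAAgtgtgatagagc
*clec-67*, chrIV:3922108-3922137, plus strand: tcatgatgtcacTGATAAacaaacccgcat
*clec-85*, chrIV:2850589-2850618, plus strand: aatttcaagttgTGATAActcgcttcaaaa
*clec-57*, chrV:14469199-14469228, plus strand: gagttggctcacTGATAAagattcatttgc
The stretches lie in front of the annotated 5′ end. The one for *clec-85* is also inside the neighboring coding gene *Y54G2A.40*.

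TGATAA was found on either strand in the 300 bp before the 5′ end of 126 of 240 *clec* genes, or 52.5% (46.2 to 58.7), against 30.7% of all coding genes. The median GC content of these windows was 33.5% for *clec* genes and 33.3% for all coding genes. Among *clec* genes 70 held 1 site, 35 held 2, 18 held 3, 2 held 4 and 1 held 5. The motif was found at 14 of 26 *clec* genes with a wild type peak within 500 bp, or 53.8% (35.5 to 71.2), and at 112 of 214 without one, or 52.3%. *clec-80*, *clec-266* and *clec-126*, which had peaks at the 5′ end, held no TGATAA in this window. A match to these letters is a description and not a binding site.

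Open chromatin was called at few *clec* genes. In wild type, 26 of 240 *clec* genes had a peak within 500 bp of the 5′ end, or 10.8% (7.5 to 15.4), against 30.6% of all coding genes. In the gene body 41 had a peak, or 17.1% (12.8 to 22.4), against 29.6%. Counting either place, 45 *clec* genes had a peak, or 18.8% (14.3 to 24.2), against 39.4%, and the other 195 had none. For *prde-1*, 14 *clec* genes had a peak within 500 bp, or 5.83% (3.51 to 9.55), against 25.1% of coding genes. There 16 had one in the body, or 6.67% (4.14 to 10.6), against 19.8%, and 20 had one in either place, or 8.33% (5.46 to 12.5), against 31.2%. In each list and place the upper bound for *clec* genes was below the value for all coding genes.

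*clec* genes are unevenly spread, with 77 in the left, 38 in the middle and 125 in the right part of a chromosome cut into 3 equal lengths, and they are shorter than the median coding gene (1787 against 2027 bp). Coding genes weighted to the chromosomes, chromosome parts and lengths of the *clec* genes gave 26.9% with a wild type peak within 500 bp and 25.1% in the body. The same weighting gave 21.2% and 16% in the *prde-1* list. The shares at *clec* genes were also below these weighted values. In the middle part 2 of 38 *clec* genes had a wild type peak within 500 bp, or 5.26%, against 32% of coding genes there.

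Peaks were also distant from *clec* genes. The median distance from a *clec* 5′ end to the nearest wild type peak was 5361 bp, against 2254 bp for coding genes. For *prde-1* these medians were 8936.5 and 3562 bp. A distance of more than 10 kb was found for 59 *clec* genes in wild type (24.6%, coding genes 14.5%) and for 112 in the *prde-1* list (46.7%, coding genes 23.1%). Just inside the 500 bp limit in wild type were *clec-172* at 396 bp, *clec-64* at 441 bp and *clec-114* at 484 bp. Just outside it were *clec-173* at 517 bp, *clec-42* at 533 bp and *clec-196* at 569 bp. For *prde-1*, *clec-53* at 475 bp was the last inside, and *clec-178* at 534 bp the first outside.

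Wild type cover at *clec* genes was no higher just before the 5′ end than further away. In steps of 100 bp it rose from 2.64% (−300 to −201 bp) to 4.78% (−100 to −1 bp), but it reached 6.88% at −1900 to −1801 bp. Over all coding genes, 15.7% of positions in the 250 bp before the 5′ end lay in a wild type peak, and this dropped to 7.28% between 251 and 1000 bp into the gene. At *clec* genes these values were 3.9% and 5.01%. Cover by *prde-1* peaks at *clec* genes was higher before the 5′ end (2.89%) than from 251 to 1000 bp (1.75%), against 12.3% and 3.46% for coding genes.

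**Figure D1:**
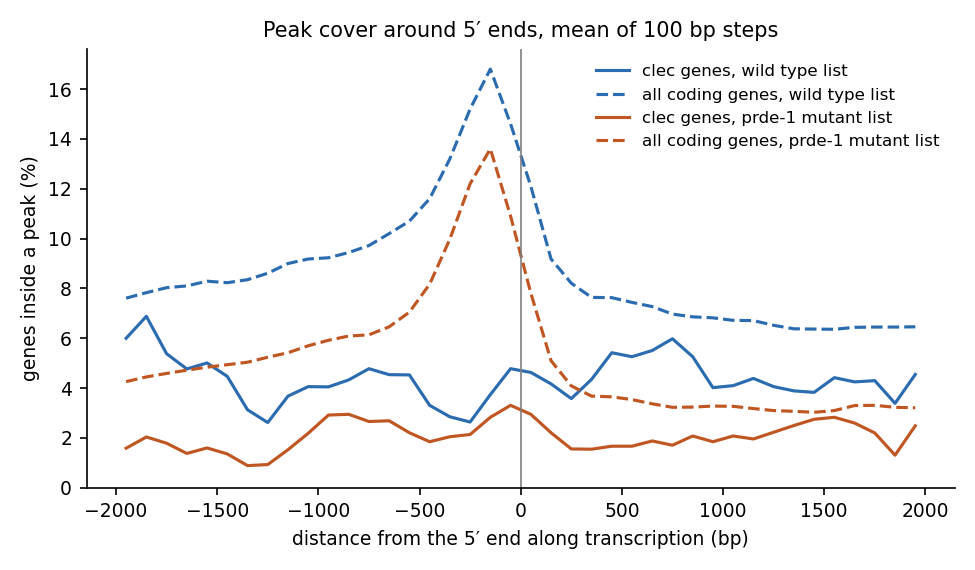
Percent of genes inside a peak (y axis) by distance from the annotated 5′ end along transcription (x axis, bp), in steps of 100 bp, for *clec* genes (solid) and all coding genes (dashed) in the wild type and *prde-1* lists. Coding genes peak just before the 5′ end in both lists. The *clec* lines have a small local rise there (3.9% of positions over the last 250 bp in wild type and 2.89% in *prde-1*). In wild type this rise is no higher than the line further away.

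A larger part of the *clec* genes with a peak had it in the body only. In wild type this was 19 of 45 genes, or 42.2% (29 to 56.7), against 22.3% of the coding genes with a peak. For *prde-1* it was 6 of 20, or 30% (14.5 to 51.9), against 19.5%, and that interval includes the value for coding genes. Since 1 shared base was enough, some of these peaks only touch the gene. The wild type peak at *clec-180* shared 1 bp with the body and that at *clec-122* 89 bp, both with the summit between genes. By the summit, the highest point of the peak, 20 of 61 wild type peaks at *clec* genes lay in a coding exon, or 32.8% (22.3 to 45.3), against 19.9% of peaks at coding genes. A further 22 summits lay in introns, 16 between genes and 3 in a 5′ UTR. The 5′ end itself was inside a peak at 11 *clec* genes in wild type (4.58%, coding 13.2%) and at 8 for *prde-1* (3.33%, coding 9.18%).

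By chromosome, wild type peaks within 500 bp were found at 5 of 36 *clec* genes on I (13.9%, all coding genes 41%) and 9 of 48 on II (18.8%, coding 31.5%). On III they were found at 3 of 14 (21.4%, coding 39.5%), and on IV at 4 of 53 (7.55%, coding 28.2%). On V, which has the largest number of *clec* genes, they were found at 4 of 86 (4.65%, coding 22%). On X, 1 of 3 genes had one. The intervals of I, IV and V lay below the coding value of the same chromosome, and those of II, III and X included it. In the gene body, wild type peaks were found at 6 *clec* genes on I (16.7%, coding 38.6%), 12 on II (25%, coding 30.3%), 3 on III (21.4%, coding 37.9%), 13 on IV (24.5%, coding 28.7%), 6 on V (6.98%, coding 20.8%) and 1 on X. There the intervals of I and V lay below the coding value, and those of II, III, IV and X included it. Peaks of the *prde-1* list within 500 bp were found at 2 *clec* genes on I (5.56%, coding 34%), 6 on II (12.5%, coding 25%), 1 on III (7.14%, coding 33.2%), 1 on IV (1.89%, coding 24.1%), 3 on V (3.49%, coding 18.1%) and 1 on X (coding 22.3%). Counting either place, chromosome IV had 14 *clec* genes with a wild type peak (26.4%, coding 37.3%) and 3 with a *prde-1* peak (5.66%, coding 30.5%). The piRNA domains of chromosome IV were taken here as the windows of the published lengths that hold the most annotated piRNA genes. These domains (chrIV:4813601-6313600 and chrIV:13585112-17085111) hold 9 *clec* genes. Of these 1 had a wild type peak, *clec-178* (all coding genes there 26.3%), and 0 had a *prde-1* peak (coding 21.5%, which 0 of 9 with an upper bound of 29.9% does not fall below).

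**Figure D2:**
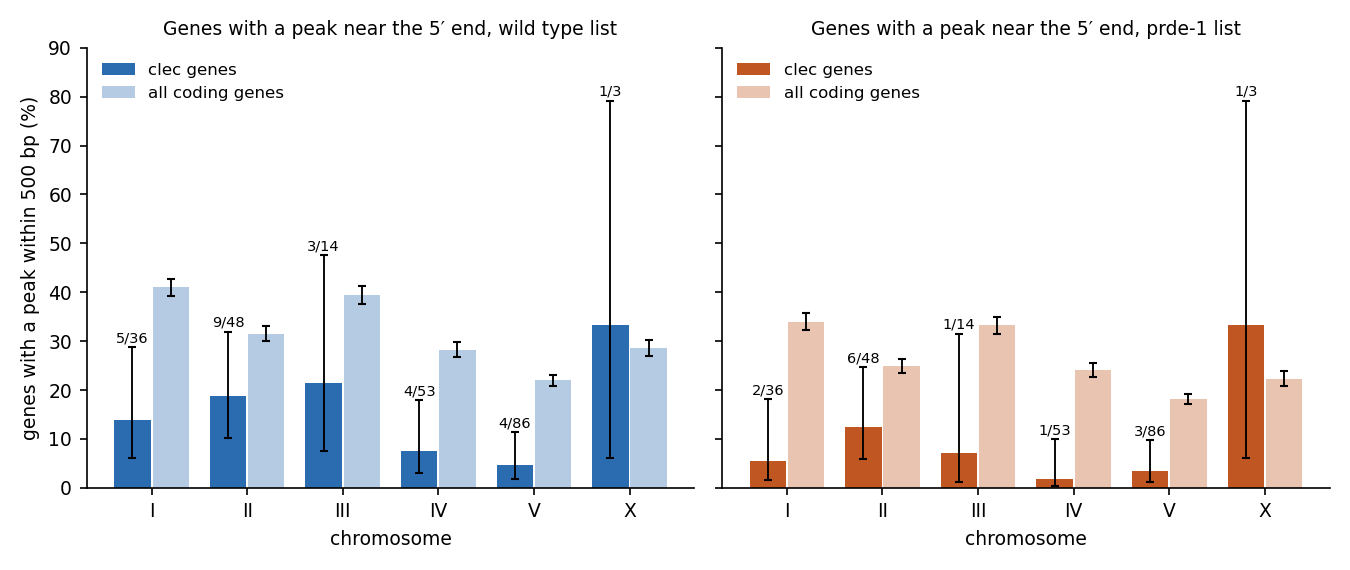
Percent of genes with a peak within 500 bp of the 5′ end (y axis) by chromosome (x axis), for *clec* genes (dark bars, with the number of genes above) and all coding genes (pale bars), in the wild type list (left) and the *prde-1* list (right). Error bars are 95% Wilson intervals. The *clec* bars are below the coding bars on every autosome in both lists, and X holds only 3 *clec* genes.

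The 61 wild type peaks at *clec* genes ranked low. Their median rank was 9628, against 7036.5 for all peaks at coding genes, and 13, 7, 17 and 24 of them fell in 4 equal parts of the list, from the best-ranked to the last. The median −log10 p at the summit was 5.25, against 8.04 over the list, while the median width was larger (452 against 334 bp). The 26 *prde-1* peaks at *clec* genes had a median rank of 7255, against 4826 for coding genes.

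The best-ranked peaks were shared with other genes. The peak at *clec-126* and *clec-125* (chrII:3518889-3521752, 2864 bp, −log10 p 47.7) was at rank 34, covered all of *clec-126* and reached the last bases of *clec-125*. It holds 3 tRNA genes, overlaps the collagen gene *col-72*, lies within 500 bp of the 5′ end of *W09G10.9*, and has its summit 221 bp from the latter. It was matched by 3 *prde-1* peaks, at ranks 173, 292 and 8567, and *prde-1* peaks covered 69.3% of the body of *clec-126*.

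The peak at *clec-87* (chrI:10183830-10186012) was at rank 93 and also covers the 5′ end of *rsa-1*, a spindle assembly gene; its *prde-1* counterpart was at rank 88. The peak in *clec-127* (chrII:3567420-3568479) was at rank 449 with 2 tRNA genes in it, and at rank 444 in the *prde-1* list. The peak at *clec-57* (chrV:14468406-14468965) was at rank 836 and holds an snRNA gene, *F08H9.11*, and its counterpart was at rank 969. At *clec-140* (chrII:4672488-4672982) the peak at rank 1672 is shared with *hmg-11*, and its counterpart was at rank 1362. Each of these 5 peaks thus held a stable RNA gene or lay within 500 bp of a 5′ end of another family. Neighbors of these kinds are common at high ranks: of all pairs of a coding gene and a wild type peak at it, 30.8% had a stable RNA gene or the 5′ end of another gene, and 56.3% at rank 1672 or better.

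Other peaks at *clec* genes also lay at genes of other families. The peak at *clec-180* (rank 1754) holds an snoRNA gene, *F32E10.10*, and that at *clec-196* (rank 1786) lies at *hsp-1*, which encodes an Hsp70 chaperone. The peak at *clec-264* (rank 2351) lies at *fkb-6*, which encodes an FK506-binding protein. Peaks at *clec-88* (rank 4452) and *clec-53* (rank 5232) were shared with the anillin gene *ani-2* and the ubiquitin-like activating enzyme gene *uba-5*.

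Of the 61 wild type peaks, 5 held a tRNA, snRNA, snoRNA or rRNA gene and 13 lay within 500 bp of a coding 5′ end of another family, 16 in all. The share with a stable RNA gene was 8.2% (3.55 to 17.8), against 5.43% of all wild type peaks. Counted as pairs of a gene and a peak, 27.4% at *clec* genes had a neighbor of either kind, near the 30.8% of coding genes. These 16 had a median rank of 3401.5, and the other 45 a median rank of 9904. Of those 45, 4 overlapped the body of a coding gene of another family, such as *kqt-1* at *clec-266*, *skn-1* at *clec-178* and *Y54G2A.37* at *clec-80*. The 41 peaks with no other gene of these kinds had a median rank of 10248 and a best rank of 1710. Of the 32 wild type peaks within 500 bp of a *clec* 5′ end, 26 had their summit nearest a *clec* 5′ end among all coding 5′ ends.

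*clec-80* and *clec-78* had 5 wild type peaks each. At *clec-80* (chrIV:2823746-2828069) the first peak reaches into *Y54G2A.37*, and the other 4 overlap no other coding gene. The wild type peaks were at ranks 1710, 2474, 8150, 8854 and 9858, and the matching *prde-1* peaks were at ranks 1568, 2511, 7620, 7639 and 8809. Wild type peaks covered 66.1% of its body and *prde-1* peaks 65.6%. It had the lowest share of unique sequence among the *clec* genes with a peak within 500 bp (90.1% of 50 bp words around the 5′ end occur a single time in the genome). *clec-82*, *clec-83* and *clec-85* lie further along the same chromosome, and each had 1 wild type peak, at ranks 13812, 10894 and 8929. Of these 3 peaks, that in *clec-83* had a *prde-1* counterpart, at rank 7890.

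*clec-78* (chrIV:3989102-4014235, 25134 bp) had its wild type peaks at ranks 5144, 11876, 11963, 13184 and 13801. All 5 summits lay in coding exons and together the peaks covered 14.7% of the body. None of the 5 had a counterpart in the *prde-1* list, whose nearest peak was 29628 bp from the 5′ end. The best of them (chrIV:4008802-4010747) was 1946 bp wide with a −log10 p of 5.33.

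*clec-62*, *clec-63* and *clec-64* (chrII:12893062-12900439) were the longest run of neighboring *clec* genes with a peak, and all 3 had one in both lists. Their best wild type ranks were 5856, 5398 and 8685, and their best *prde-1* ranks were 7221, 8443 and 8704. The longest run without a peak was 13 genes on chromosome V (chrV:16839121-16869840), from *clec-40* to *clec-33*. Of the *clec* genes, 125 lie in 41 runs of 2 or more neighbors, and 10 of them had a wild type peak within 500 bp, or 8% (4.4 to 14.1). Of the other 115, 16 had one, or 13.9% (8.75 to 21.4), and the intervals overlap.

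**Figure D3:**
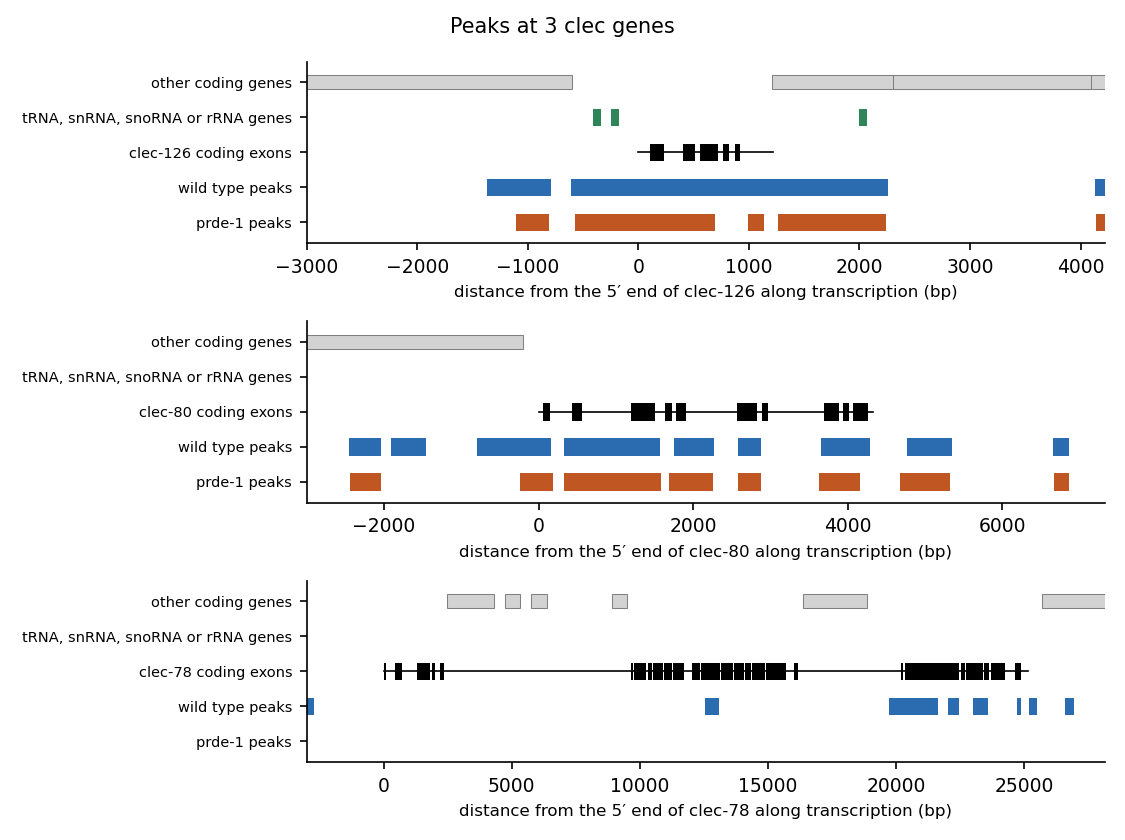
Peaks, coding exons and neighboring genes at *clec-126*, *clec-80* and *clec-78* by distance from the annotated 5′ end along transcription (x axis, bp). At *clec-126* the peaks extend over 3 tRNA genes, at *clec-80* the 5 wild type peaks are matched in the *prde-1* list, and at *clec-78* the 5 wild type peaks in the body have no *prde-1* peak.

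Of 8 genes of the family known from work on immunity or behavior, 7 had no peak, as had 195 of the 240 *clec* genes in wild type. No peak was called in either list within 500 bp or in the body of *clec-4*, *clec-17*, *clec-38*, *clec-39*, *clec-49*, *clec-60* or *clec-67*. *clec-39* and *clec-49* are known for a role in defense against *Serratia marcescens*, and *clec-60* and *clec-67* for induction by bacterial pathogens. *clec-38* acts in axon outgrowth. From their 5′ ends the nearest wild type peak was between 1375 bp (*clec-49*) and 25285 bp (*clec-67*) away. *clec-85*, which is regulated by the p38 pathway, had a single wild type peak, in its last part at 4353 bp from the 5′ end (rank 8929), in sequence shared with *Y54G2A.16*. That peak had no *prde-1* counterpart.

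**Figure D4:**
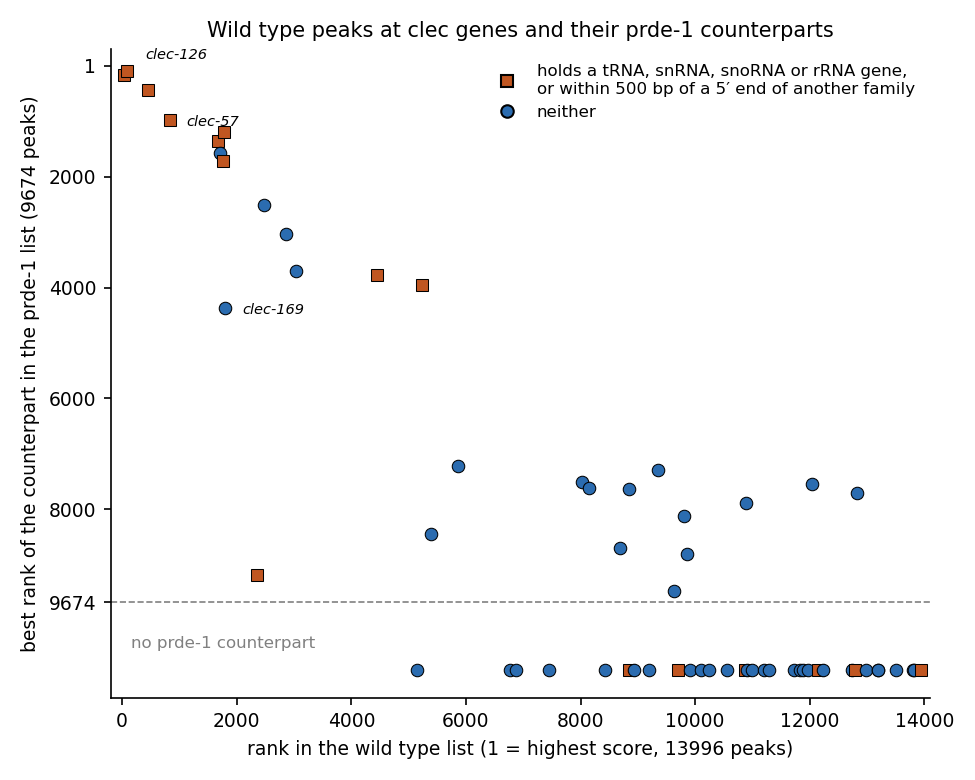
Each of the 61 wild type peaks at *clec* genes by its rank in the wild type list (x axis, rank 1 on the left) and by the best rank of its *prde-1* counterpart (y axis, rank 1 at the top). Peaks below the dashed line have no counterpart (33 peaks). Squares hold a tRNA, snRNA, snoRNA or rRNA gene or lie within 500 bp of a 5′ end of another family, and they make up the 5 best-ranked peaks.

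Every *prde-1* peak at a *clec* gene overlapped a wild type peak. Of 26 such peaks 0 lacked a wild type counterpart, which allows a share of up to 11.5% (3 counts of 26, with a Wilson upper bound of 12.9%), against 1.91% of all *prde-1* peaks. In the other direction, 33 of 61 wild type peaks at *clec* genes had no *prde-1* counterpart, or 54.1% (41.7 to 66), against 36.1% of all wild type peaks. Absence from the list depended strongly on rank. With the wild type list in 10 equal parts by rank, it was 0.5% in the best part and 89.8% in the last. Wild type peaks of the same ranks as those at *clec* genes gave an expected 49.1%, and peaks of the same rank and GC content 51.2%, both inside the interval of the observed share.

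In the upper 50% of the list 3 of 20 peaks at *clec* genes had no counterpart, or 15% (5.24 to 36). From rank 1.09 (5.43%) were expected, and from rank and GC content 7.62%, both inside that interval. The 3 peaks were at *clec-78* (rank 5144), *clec-178* (rank 6766) and *clec-104* (rank 6874). In the lower 50% it was 30 of 41, or 73.2%, against 70.4% expected from rank. The next peaks in rank without a counterpart were at *clec-1* (7449), *clec-50* (8426) and *clec-88* (8852). *clec-50* and *clec-88* each kept another peak in the *prde-1* list, at ranks 8128 and 3768. On chromosome IV 13 of 22 peaks had no counterpart (59.1%, expected 50.2%), and on the other chromosomes 20 of 39 (51.3%, expected 48.5%). By place, 15 of 22 peaks with an intron summit had no counterpart, or 68.2%, where 12.1 (54.9%) were expected from rank. Intron peaks at all coding genes, which ranked better (median 7189 against 10405), gave 41.4%. For coding exons it was 14 of 20, or 70%, where 10.4 (52%) were expected from rank, against 70.5% at all coding genes. Between genes it was 3 of 16, or 18.8%, where 5.21 (32.6%) were expected from rank, against 15.7% at all coding genes. Peaks without a counterpart had a median rank of 11194 and a median GC content of 50%, and those with one 4842 and 43.2%.

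By gene, 14 *clec* genes had a peak within 500 bp of the 5′ end in both lists. These were *clec-8*, *clec-48*, *clec-50*, *clec-53*, *clec-57*, *clec-62*, *clec-64*, *clec-80*, *clec-87*, *clec-88*, *clec-126*, *clec-140*, *clec-150* and *clec-266*. Another 12 had one in the wild type list alone, namely *clec-1*, *clec-99*, *clec-104*, *clec-114*, *clec-123*, *clec-145*, *clec-146*, *clec-148*, *clec-149*, *clec-169*, *clec-172* and *clec-178*. These 12 are 46.2% of the 26 (28.8 to 64.5), against 19% of all coding genes with a wild type peak there and 31.4% expected from rank. At *clec-169* the wild type peak (rank 1800) did have a *prde-1* counterpart (rank 4365), which was narrower and ended 561 bp from the 5′ end, past the limit. Counting the body too, 25 of 45 genes lacked a *prde-1* peak, or 55.6% (41.2 to 69.1), against 21.8% of coding genes and 36.6% expected from rank. The peaks of 3 of these 25 (*clec-169*, *clec-180* and *clec-264*) had a counterpart that fell outside the window and the body. The shares expected from rank, here and for the 12 genes, were built from wild type peaks without any counterpart. Genes of this kind are thus in the observed counts but not in the expected ones. An excess over the share expected from rank cannot be read from these values. No *clec* gene had a peak in the *prde-1* list alone.

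Of the genes with wild type peaks in the body only, *clec-63*, *clec-83*, *clec-122*, *clec-125*, *clec-127* and *clec-196* had a *prde-1* peak. The 13 that had none were *clec-78*, *clec-79*, *clec-82*, *clec-85*, *clec-109*, *clec-111*, *clec-170*, *clec-173*, *clec-180*, *clec-187*, *clec-221*, *clec-246* and *clec-264*. *clec-266* was the only X-linked *clec* gene with a peak, at wild type rank 2856 and *prde-1* rank 3040, in sequence shared with the potassium channel gene *kqt-1*.

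Families of related function were set beside the *clec* genes. Galectin genes (*lec-*), which encode another kind of sugar-binding protein, had a wild type peak within 500 bp at 7 of 12 (58.3%, 32 to 80.7). Lysozyme genes (*lys-* and *ilys-*) had one at 1 of 16 and saposin-like genes (*spp-*) at 10 of 31 (32.3%, with 3 of 31 in the *prde-1* list). Antimicrobial peptide genes of the *cnc-* and *abf-* kinds had one at 0 of 11 and 0 of 6, *fip-* and *fipr-* genes at 5 of 36, *irg-* genes at 0 of 8 and *dod-* genes at 2 of 10. These immune families, without the galectins, came to 18 of 118, or 15.3% (9.87 to 22.8), and that interval overlaps the one of the *clec* genes. Among large families, chemoreceptor genes (*str-*) had a peak at 6 of 193 (3.11%), nuclear hormone receptor genes (*nhr-*) at 85 of 269 (31.6%), and cuticle collagen genes (*col-*) at 80 of 156 (51.3%). The share of the *clec* family lay between those of the chemoreceptor and the nuclear hormone receptor genes.

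**Figure D5:**
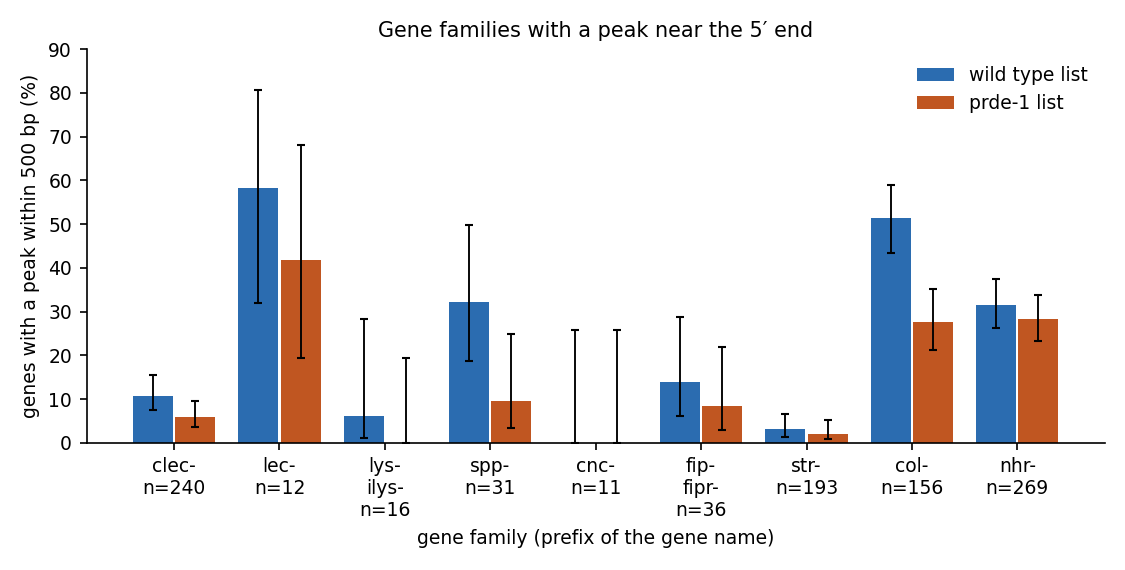
Percent of genes with a peak within 500 bp of the 5′ end (y axis) in 9 gene families (x axis, with the number of genes), in the wild type and *prde-1* lists. Error bars are 95% Wilson intervals. The *clec* bars reach 10.8% (wild type) and 5.83% (*prde-1*), above *str-* genes and below *nhr-*, *lec-* and *col-* genes.

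Of 14 listed regulators of intestinal immunity, 6 had a wild type peak within 500 bp and 5 a *prde-1* peak, counts too small to set apart from the 30.6% and 25.1% of all coding genes. The GATA factor genes *elt-2* and *elt-7* had peaks at ranks 3959 and 3661 in wild type and 3272 and 3077 in the *prde-1* list. The transcription factor genes *zip-2*, *hlh-30* and *daf-16* also had peaks in both lists, and *sma-3* (rank 13967) in wild type alone. *atf-7*, which encodes the transcription factor under p38, had a peak in its body at rank 17 in wild type and rank 18 in the *prde-1* list. Peaks in the body but not within 500 bp were also found at *tir-1* (best ranks 148 in wild type and 383 in *prde-1*). The same held for *skn-1* (333 and 185) and *vhp-1* (1062 and 803). The kinase genes *nsy-1*, *sek-1* and *pmk-1* and the ligand gene *dbl-1* had no peak in either list.

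Reads in near-identical gene copies can fail a mapping filter, so the sequence around each 5′ end was checked for 50 bp words that occur once in the genome. None of the 26 *clec* genes with a wild type peak within 500 bp had under 90% of such words, and 16 of the 214 without did (7.48%, all coding genes 8.68%). The paired loci of *clec-15*, *clec-209* and *clec-249* had 0% and no peak, so accessibility there cannot be read from the lists.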

How the data were processed

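ATAC-seq peaks of 3 wild type and 3 *prde-1* mutant IGN samples were used. The authors used cutadapt for adapters and Bowtie2 to map reads to ce11. Poorly mapped, mitochondrial and duplicate reads were discarded, replicates were brought to similar depth and pooled, short fragments were kept, and peaks were called with Genrich. Whether Genrich was given the pool or the separate replicates is not given in the sources used here. Versions are not given in the sources used here. The deposited score sums −log10 p along the peak (lowest value 200.005 in wild type and 200.004 in *prde-1*), and the deposited −log10 p at the summit is not adjusted. Scores depend on depth, so ranks and presence were used and no fold was computed. The lists hold 0 columns per sample, so no test over samples was made and the depth is unknown.

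Genes came from Ensembl release 115, and sequences from the RefSeq WBcel235 genome. At least 1 shared base made a counterpart. Expected shares weight coding genes by chromosome, chromosome part (3 equal lengths) and length, or wild type peaks by rank (10 equal parts). The members and lists were chosen with earlier results of these data known. Named genes were the 12 with the best wild type peak within 500 bp, the 6 best wild type peaks without a counterpart, the 5 best body-only genes, any *prde-1*-only gene, 8 genes known from earlier work, and the longest runs. Other genes were named after their values were seen, and overlaps with other coding genes and their shares over all coding genes were counted then. Alternatives were other windows, the summit, other overlaps, 9000 peaks per list, the upper 50% of each list, isolated genes and autosomes. Python 3.11.15, numpy 2.4.6, scipy 1.17.1 and matplotlib 3.10.9 were used, and overlaps were tested on simulated data.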

Additional observations from a re-analysis of the deposited data

How the results depend on the processing

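The 6 shares were recomputed under 52 alternatives, and 38 values stayed within the interval of the reported one. All 36 shares of *clec* genes with a peak stayed below the share of all coding genes under the same setting. For wild type peaks within 500 bp (10.8%), a window of 1000 bp gave 16.7%, a 5′ end inside the peak 4.58%, the upper 50% of the list 5%, and the 9000 best peaks 5.83%. For *prde-1* peaks within 500 bp (5.83%), the same window gave 10%, a 5′ end inside the peak 3.33% and the upper 50% of the list 3.33%. For the gene body, the upper 50% gave 6.25% in wild type (17.1%) and 2.92% in *prde-1* (6.67%), the 9000 best peaks gave 7.92% in wild type, and a summit in the body gave 3.75% in *prde-1*. Of the wild type peaks, the share lacking a counterpart (54.1%) was 28.6% with 9000 peaks per list, against 16.4% of all peaks. With the upper 50% it was 30%, below the 34.4% of all peaks. It was above that of all peaks in 7 of 8 alternatives, none of which matched peaks by rank. For peaks by place, outside the piRNA domains or without stable RNA genes, the value for all peaks was that of the full list, 36.1%. For *prde-1* peaks the share lacking a counterpart was 0 in 7 of 8 alternatives. With 9000 peaks per list, where low-ranked wild type peaks are left out, it was 24% (6 of 25 peaks, 11.5 to 43.4). All *prde-1* peaks gave 11% under that setting. Genes outside the piRNA domains, and peaks without tRNA, snRNA, snoRNA or rRNA genes, were alternatives chosen after seeing the data, and changed no share beyond its interval. No paired analysis was possible because each list covers all replicates of a genotype together, and for that reason no replicate could be left out. Depth, which is unknown, limits which low peaks each list could hold.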
